A study of Mus musculus with 18 samples.

Results

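Complement is a cascade of secreted proteins, with receptors and inhibitors, whose transcripts were followed here in sorted brain microglia. The set comprised the 3 chains of C1q (C1qa, C1qb, C1qc), the convertase components C2, C3 and C4b, the anaphylatoxin receptors C3ar1 and C5ar1, and the regulators Cfp and Serping1. A gene was taken from probe sets annotated to its symbol alone, and the brightest over all arrays stood for it. Of the 10 genes, 9 had such a probe set, 1 each, among 22180 genes tested. Expression of C3 was not analysed here.

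Microglia had been sorted from cortex or corpus callosum of healthy, untreated C57Bl/6 mice housed under specific-pathogen-free (SPF) conditions. The ages were postnatal day 3 (P3), day 7 (P7) and adulthood. The 6 groups of region and age held 3 arrays each, 18 in all. After a Percoll gradient the sort kept CD45+ CD11b+ Gr1- cells. The labels used here give neither the number of animals behind an array nor whether animals were pooled, so the p-values measure only the spread between these arrays. The study's title concerns microglia in the formation of myelin, which begins in the corpus callosum after birth, and the comparisons ask whether region and age alter complement transcripts.

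In the classical pathway C1q binds a target, its proteases cleave C4 and C2 into a convertase, and the convertase splits C3. Fragments of C3 tag the target for uptake through complement receptors 3 and 4, and small fragments of C3 and C5 signal through C3ar1 and C5ar1. Properdin, encoded by Cfp, stabilises the convertase of the alternative pathway, and C1 inhibitor, encoded by Serping1, blocks the first proteases. In the brain microglia are the main source of C1q, and C1q and C3 are known for marking synapses for removal during development.

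The 3 C1q genes lie side by side on chromosome 4 in the order C1qa, C1qc, C1qb, with 0 other protein-coding genes between neighbours. C2 and C4b lie on chromosome 17 with 6 protein-coding genes between them. The 250 bases upstream of the start are shown for 2 chains of C1q, which varied together, and for C3ar1, which changed with age. The sequences come from the RefSeq annotation of GRCm38.p6, run 5′ to 3′ along the minus strand on which each of these genes lies, and carry motif matches in capitals.
C1qb, chr4:136886201-136886450: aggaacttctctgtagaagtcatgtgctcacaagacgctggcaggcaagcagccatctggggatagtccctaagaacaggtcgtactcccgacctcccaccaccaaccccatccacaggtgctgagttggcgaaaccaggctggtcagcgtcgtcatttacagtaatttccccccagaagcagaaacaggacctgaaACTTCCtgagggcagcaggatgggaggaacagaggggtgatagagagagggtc
C1qc, chr4:136892915-136893164: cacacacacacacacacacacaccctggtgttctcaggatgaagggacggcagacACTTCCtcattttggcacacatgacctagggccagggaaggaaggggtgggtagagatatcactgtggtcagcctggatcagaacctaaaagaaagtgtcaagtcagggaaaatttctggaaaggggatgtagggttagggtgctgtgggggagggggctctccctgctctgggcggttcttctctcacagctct
C3ar1, chr6:122856158-122856407: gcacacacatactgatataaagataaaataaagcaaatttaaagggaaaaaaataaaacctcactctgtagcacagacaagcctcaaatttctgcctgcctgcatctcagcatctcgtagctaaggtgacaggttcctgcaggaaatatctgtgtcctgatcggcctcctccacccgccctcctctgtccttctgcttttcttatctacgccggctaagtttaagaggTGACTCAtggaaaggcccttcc
The motifs searched, on both strands, were GGAAGT (ETS-type), CACGTG (E-box), TGANTCA (AP-1-type) and CCAAT, none of which overlapped another in these windows. The capitals in the C1qb and C1qc windows mark GGAAGT read on the opposite strand, 53 and 195 bases before the start. The capitals in the C3ar1 window mark TGANTCA, 22 bases before the start. Of 32851 promoter windows of the same length, 19.7% held GGAAGT and 6.75% held TGANTCA, so these matches describe the letters and name no bound factor. Promoters of C1qa, C2, C4b and Serping1 are not shown.

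Expression is given as the log2 values deposited by the authors, and levels of different genes are not set against each other. Array medians lay between 5.58 and 5.74. A microglial marker list averaged 10.33 to 11.29 on the arrays, with P2ry12 at 11.48 to 12.26, whereas Gfap (astrocytes), Cldn5 (endothelium) and Mog (oligodendrocytes) reached 5.80, 5.62 and 6.08 at most. A list of 12 neuron markers averaged 6.12 to 6.40 in P3 cortex and 5.58 to 6.07 in P3 corpus callosum. It averaged 5.53 to 5.73 on the P7 arrays and 5.25 to 5.54 on the adult arrays. The part of neuronal RNA in the differences below was not tested. P3 corpus callosum replicate 3 stood apart: its neutrophil list (12 of 12 markers measured) averaged 6.52 against 5.50 and 5.66 in the other arrays of its group, with S100a8 at 8.76. In P7 corpus callosum replicate 1 the neutrophil list averaged 6.00 against 5.36 and 5.37, with S100a8 at 7.35. In P3 cortex replicate 1 it averaged 5.91 against 5.64 and 5.25, with S100a8 at 8.19. S100a8 read 6.52 and 3.85 in P3 cortex replicates 2 and 3, and 6.38 and 6.53 in P3 corpus callosum replicates 1 and 2. A list of 10 border-associated macrophage markers averaged 6.19 to 7.25 on the P3 arrays, 6.52 to 6.97 on the P7 arrays and 5.54 to 5.72 on the adult arrays. Its marker Mrc1 read 10.06 to 11.18 at P7 and 5.56 to 7.24 in the adult. At P3 Mrc1 was lower in corpus callosum (9.61 to 9.66) than in cortex (10.26 to 10.45). The list averaged 6.54 to 7.25 and 6.19 to 6.67 in these groups, so its mean does not give the course of each marker. P3 arrays carry another label prefix than the rest, so age and array set cannot be told apart in P7 against P3 or in adult against P3. Where a regional difference is compared with that at P3, an effect of array set cancels only if it is equal in both regions.

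Between the regions, C2 was the only one of the 9 genes to pass the test, and it did so at P7 and in the average over ages. It was higher in corpus callosum. At P3, 0 of 9 genes passed limma's test, where 0.505% of all genes did. At an unadjusted p under 0.05 the counts were 2 of 9 (C1qa and C2) and 2848 of 22180. In the adult 0 of 9 passed, where 0.00451% of all genes did. The counts at an unadjusted p under 0.05 were 0 of 9 and 1888 of 22180. At P7 the share of all genes called was 0.451%, and for the regional difference averaged over the 3 ages 0.618%. The median regional difference of the 9 genes was 0.13 at P3, 0 at P7 and -0.02 in the adult, beside 0.01, 0 and 0.01 over all genes. Tests were made with limma over all genes, each adjusted p is a Benjamini-Hochberg value over 22180 genes, a gene was called below 0.05, and the value after ± is a standard error after a difference and a standard deviation (n = 3) after a level.

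C2 is the protease component of the classical convertase. Its probe set, 17344086, read 5.20, 5.04 and 5.35 in P3 cortex and 6.08, 6.31 and 5.95 in P3 corpus callosum. At P7 the values were 4.75, 4.97 and 4.71 in cortex and 7.26, 6.18 and 5.73 in corpus callosum. In the adult they were 4.55, 5.09 and 5.10 in cortex and 5.21, 4.88 and 5.07 in corpus callosum. All 6 early postnatal callosal arrays thus lay above all other arrays, and the adult regions overlapped. These 6 arrays were also the only ones of 18 on which C2 exceeded its array's median, so levels elsewhere may lie near background and the size of the folds is uncertain.

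The regional difference in C2 at P7 was 1.58 ± 0.26, or 2.99-fold (95% interval 1.03 to 2.13, adjusted p 0.00511). Callosal replicate 1 was the highest array and also had the raised neutrophil list. Without it the difference was 1.15 (adjusted p 0.00826). In a fit on the compared groups alone the difference was the same 1.58 and was not called (adjusted p 0.134). At P3 the arrays of the regions did not overlap either, but the difference of 0.92 ± 0.26 was not called (adjusted p 0.127). In the adult it was 0.14 ± 0.26 with an interval of -0.41 to 0.69 (adjusted p 0.921). Averaged over ages, callosal C2 exceeded cortical C2 by 1.84-fold (0.88 ± 0.15, adjusted p 0.00639). In bulk samples a different number of cells carrying a transcript and a different amount of it per cell cannot be told apart.

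**Figure D1:**
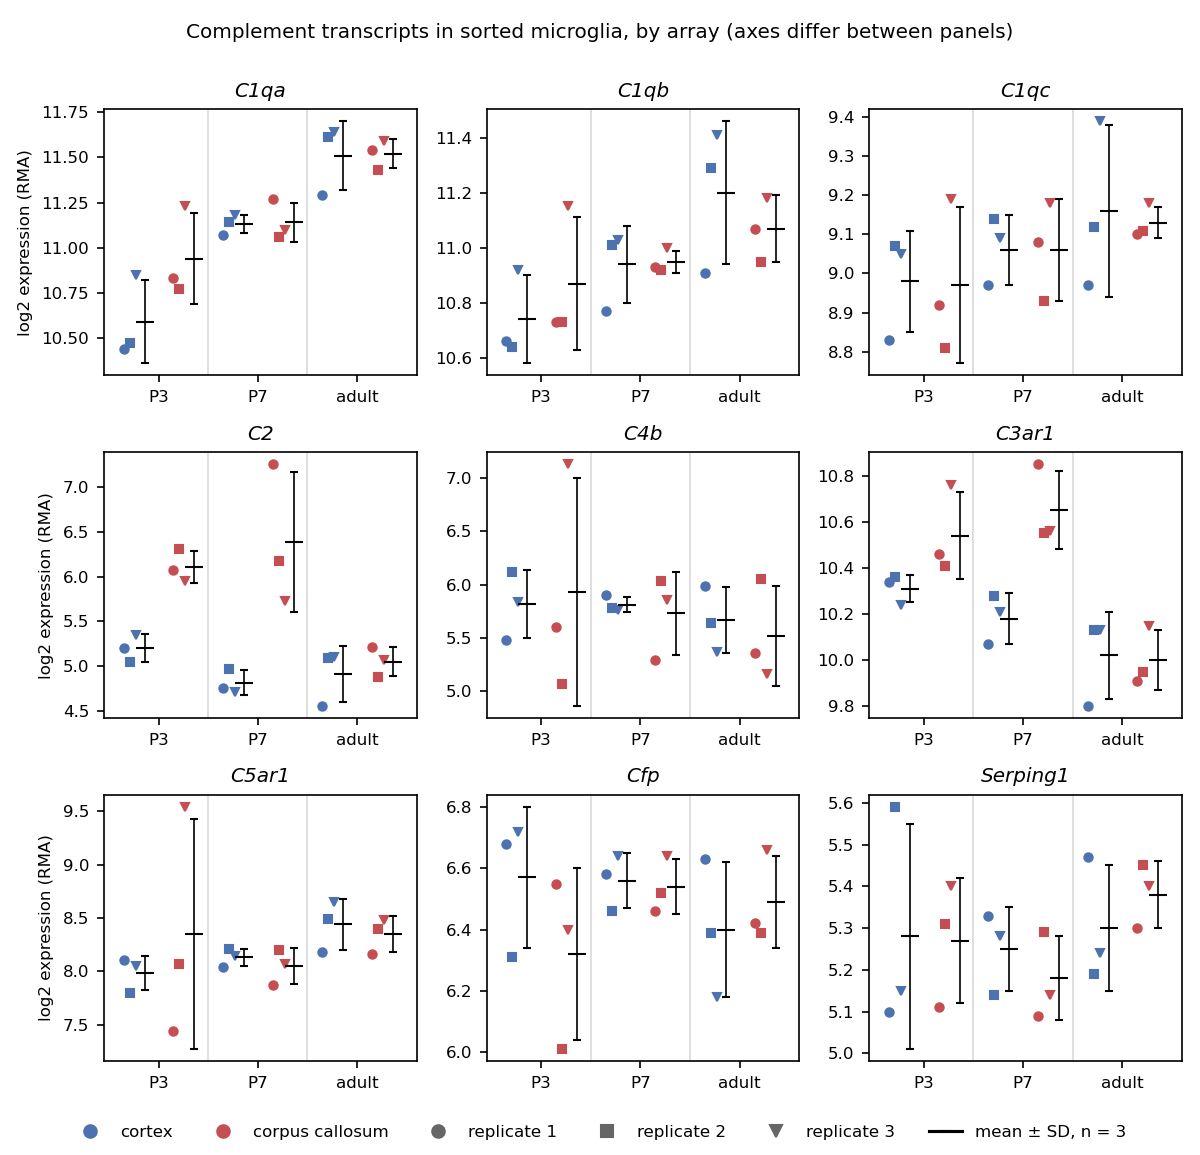
Log2 expression of the 9 complement genes on every array (points, shape by replicate number), with the group mean and SD (n = 3), by age on the horizontal axis and region by colour. C2 stands high in P3 and P7 corpus callosum and nowhere else, C3ar1 is lowest in the adult, C1qa is highest in the adult, and C5ar1 and C4b each show 1 high array, P3 corpus callosum replicate 3.

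From P7 to the adult, 2 of the 9 genes changed in corpus callosum, C2 and C3ar1, both downward. In cortex 0 of 9 passed limma's test, and 1 had an unadjusted p under 0.05, beside 4517 of 22180 over all genes. Over all genes 17.2% were called in corpus callosum (6.56% higher, 10.7% lower) and 10.2% in cortex (4.05% higher, 6.15% lower). With each array centred on its median, the callosal calls split into 907 higher and 3063 lower genes instead of 1454 and 2368. The median change of the 9 genes was 0.07 in corpus callosum and 0.10 in cortex, beside 0.05 and 0.03 over all genes.

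C2 fell by 1.34 on the log2 scale from P7 to adult corpus callosum (SE 0.26, 2.53-fold, adjusted p 0.0012), and by 0.91 without P7 corpus callosum replicate 1 (adjusted p 0.00309). In cortex the change was 0.11 ± 0.26 (interval -0.44 to 0.66, adjusted p 0.894). The test of the difference between these changes gave -1.44 ± 0.37 and was not called (adjusted p 0.18). The border-associated macrophage list lay at 6.76 to 6.97 in P7 and 5.64 to 5.72 in adult corpus callosum, and at 6.52 to 6.83 in P7 and 5.54 to 5.64 in adult cortex. Its part in the fall of C2 or of C3ar1 was not tested.

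C3ar1, the receptor for the C3a fragment, was measured by probe set 17470616. Its levels were 10.34, 10.36 and 10.24 in P3 cortex and 10.46, 10.41 and 10.76 in P3 corpus callosum. At P7 they were 10.07, 10.28 and 10.21 in cortex and 10.85, 10.55 and 10.56 in corpus callosum. Adult levels were 9.80, 10.13 and 10.13 in cortex and 9.91, 9.95 and 10.15 in corpus callosum. At P3 and at P7 every callosal array lay above every cortical array of that age, and adult callosal arrays lay below all P7 callosal arrays.

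C3ar1 fell by 0.65 on the log2 scale from P7 to adult corpus callosum (SE 0.13, 1.57-fold, interval -0.93 to -0.37, adjusted p 0.00187). Without P7 corpus callosum replicate 1 the fall was 0.55 (adjusted p 0.0161). In cortex the change was -0.16 ± 0.13 (adjusted p 0.582), and the difference between the regions' changes was -0.49 ± 0.19 (adjusted p 0.557). The regional difference was 0.23 ± 0.13 at P3 (adjusted p 0.504), 0.47 ± 0.13 at P7 (adjusted p 0.236) and -0.02 ± 0.13 in the adult (adjusted p 0.981), none of them called. Arrays of the regions did not overlap for 2 of 9 genes at P3 and at P7, beside 15.8% and 16.7% of all genes. In the order of group means, P7 and P3 corpus callosum (10.65 and 10.54) came first and differed by less than their SD, and the adult groups came last, cortex at 10.02 and corpus callosum 0.02 lower, and did likewise.

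**Figure D2:**
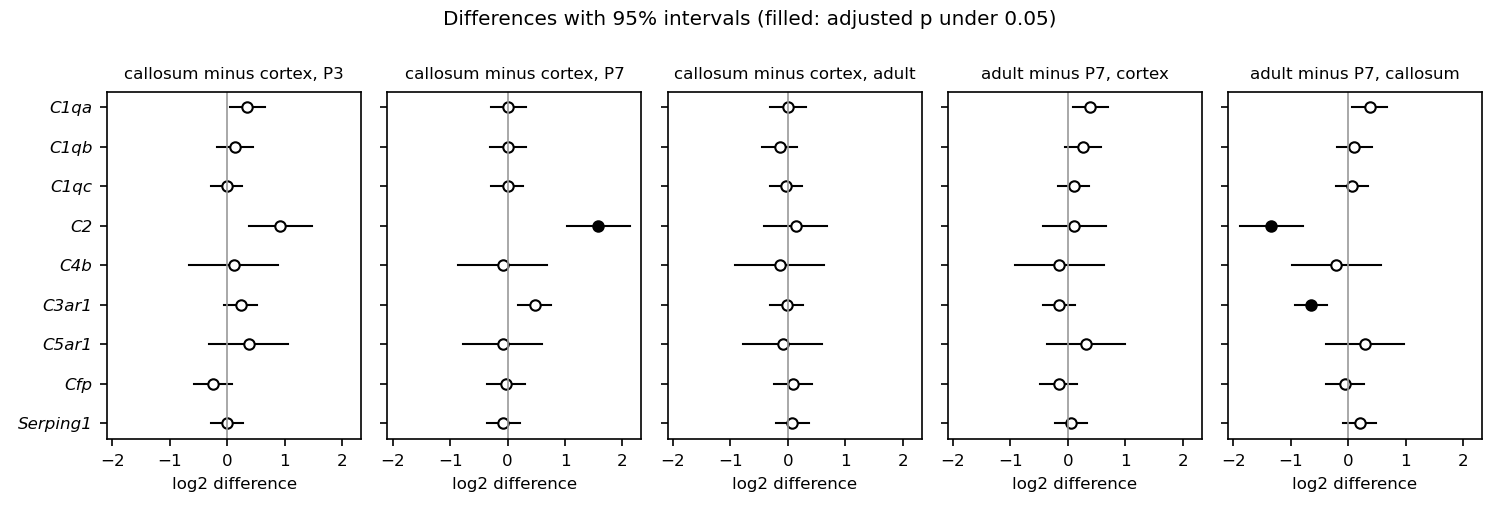
Log2 differences (horizontal axis) of the 9 complement genes in 5 comparisons, with 95% intervals from limma and filled points for an adjusted p under 0.05. Filled points are C2 in corpus callosum against cortex at P7, and C2 and C3ar1 in adult against P7 corpus callosum.

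C5ar1, the receptor for C5a, passed in no comparison. Its group means lay between 7.98 ± 0.16 in P3 cortex and 8.44 ± 0.24 in adult cortex. In P3 corpus callosum the arrays read 7.44, 8.07 and 9.54, and the highest was replicate 3, the array with the raised neutrophil list. Its monocyte marker list (6.37 against 5.58 and 5.60) and border-associated macrophage list (7.25 against 6.94 and 6.54) were also the highest of the group. The regional difference at P3 was 0.37 ± 0.32 (adjusted p 0.694), and -0.23 without that array (adjusted p 0.652). Neutrophils are known to carry C5ar1 and the sort excluded Gr1+ cells. The part of neutrophils, monocytes or border-associated macrophages in this value was not tested.

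C1qa, C1qb and C1qc encode the chains that assemble into C1q, the recognition molecule of the classical pathway. C1qa (probe set 17431619) had group means of 10.59 ± 0.23 and 10.94 ± 0.25 in P3 cortex and corpus callosum, 11.13 ± 0.05 and 11.14 ± 0.11 at P7, and 11.51 ± 0.19 and 11.52 ± 0.08 in the adult. The regions thus lay within their spread of each other at P7 and in the adult, and the P7 and adult arrays did not overlap in either region. At P3 callosal C1qa exceeded cortical C1qa by 0.35 ± 0.14 (95% interval 0.05 to 0.65), a difference that was not called (adjusted p 0.304). Without P3 corpus callosum replicate 3 it was 0.21 (adjusted p 0.588). From P7 to the adult the difference was 0.39 ± 0.14 in cortex (adjusted p 0.11) and 0.38 ± 0.14 in corpus callosum (adjusted p 0.0831), and neither was called. After a second quantile normalization of the arrays both were called, at 0.59 (adjusted p 0.00753) and 0.56 (adjusted p 0.00717). Each stayed uncalled in 11 of 16 alternatives. The lowest values were 0.33 in cortex, without adult cortex replicate 3, and 0.28 in corpus callosum, with median-centred arrays. The microglial marker list lay at 10.77 to 10.81 in P7 and 10.99 to 11.29 in adult cortex, and at 10.39 to 10.65 in P7 and 10.98 to 11.17 in adult corpus callosum, and its part in C1qa was not tested. Arrays did not overlap for 1 of 9 genes in cortex and 4 of 9 in corpus callosum, beside 27.3% and 34.6% of all genes.

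C1qa was also higher at P7 than at P3 in cortex by 0.54 ± 0.14, a difference that was not called (adjusted p 0.088), and by 0.20 ± 0.14 in corpus callosum (adjusted p 0.567). In these comparisons 0 of 9 genes passed limma's test, where 0.884% of all genes were called in cortex and 0.739% in corpus callosum. At an unadjusted p under 0.05 were 1 of 9 in cortex and 0 of 9 in corpus callosum, beside 2892 and 3149 of 22180. Age and array set coincide in these comparisons. C1qb (probe set 17431607) ran from 10.74 ± 0.16 in P3 cortex to 11.20 ± 0.26 in adult cortex. C1qc (probe set 17431612) ran from 8.97 ± 0.20 in P3 corpus callosum to 9.16 ± 0.22 in adult cortex. Neighbouring group means of C1qb and of C1qc differed by less than the larger SD of the pair throughout, and no comparison of either gene was called. From lowest to highest, the group means spanned 0.46 for C1qb and 0.19 for C1qc, beside within-group SDs of 0.18 and 0.15. In adult against P7 cortex, C1qb differed by 0.16 to 0.43 over 16 alternatives and stayed uncalled in all of them (lowest adjusted p 0.0588). At P7 the 95% intervals of the regional difference were -0.29 to 0.32 for C1qa, -0.30 to 0.32 for C1qb and -0.28 to 0.27 for C1qc.

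The chains of C1q deviated from their group means together. Over 18 arrays Pearson's r of the deviations was 0.89 between C1qa and C1qb, 0.72 between C1qa and C1qc and 0.80 between C1qb and C1qc. Without P3 corpus callosum replicate 3 these were 0.84, 0.60 and 0.72. C3ar1 gave 0.66, 0.68 and 0.65 with C1qa, C1qb and C1qc, and 0.50, 0.55 and 0.51 without that array. C1qb with C5ar1 gave 0.68, and 0.50 without it. C2 and C3ar1 gave 0.47, and 0.66 without that array, while C4b and C5ar1 gave 0.62 with it and -0.36 without it. In the values themselves, over 18 arrays, C1qa and C1qb gave 0.87. Among genes at or above the median mean level, Cd14 followed C1qa most closely (0.94), and Map2k1 followed C1qb (0.93). For C1qc the closest was C1qb (0.82). How common such r is among other pairs of genes was not examined. These are descriptions: probe sets of an array share its RNA, amplification and normalization.

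**Figure D3:**
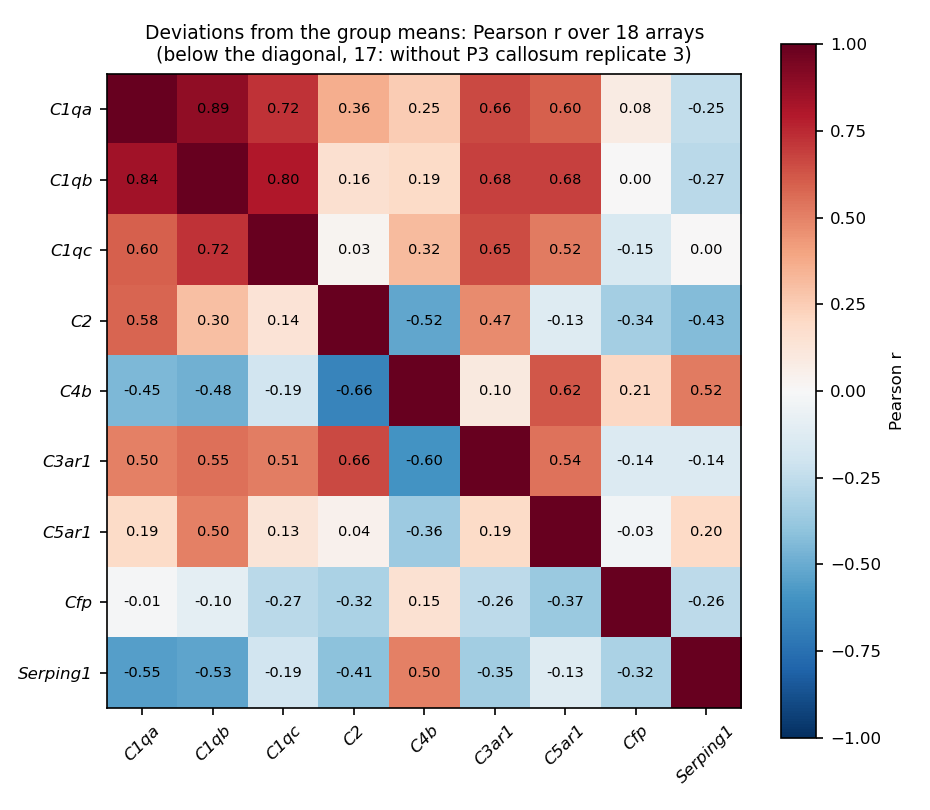
Pearson's r between the complement genes' deviations from their group means, over 18 arrays above the diagonal and over 17 arrays, without P3 corpus callosum replicate 3, below it. The 3 C1q genes have r of 0.60 to 0.89 with each other on both sides. C3ar1 has 0.65 to 0.68 with them above the diagonal and 0.50 to 0.55 below it. The value for C4b with C5ar1 changes sign.

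C4b, whose product is the other part of the classical convertase, passed in no comparison. Probe set 17343918 had group means from 5.52 ± 0.47 in adult corpus callosum to 5.93 ± 1.07 in P3 corpus callosum, where the arrays read 5.60, 5.07 and 7.13. The highest was again replicate 3. C4b exceeded its array's median on 10 of 18 arrays, so its lower levels may lie near background. Mouse C4b has a near-identical relative, C4a, which the probe set may also read, so the identity of this signal is uncertain.

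The regulators passed in no comparison, and their group means spanned 0.25 for Cfp and 0.21 for Serping1. Cfp (probe set 17540521), which encodes properdin, had group means between 6.32 ± 0.28 in P3 corpus callosum and 6.57 ± 0.23 in P3 cortex, and a regional difference at P3 of -0.25 ± 0.16 (adjusted p 0.538). Serping1 (probe set 17387517), which encodes C1 inhibitor, had group means from 5.18 ± 0.10 in P7 corpus callosum to 5.38 ± 0.08 in adult corpus callosum and stayed below its array's median on 18 of 18 arrays. Its difference between those groups was 0.21 ± 0.14 and was not called (adjusted p 0.339), although the arrays did not overlap.

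In limma's tests of the regional difference between ages 0 of 9 genes passed. For the adult against P7 2 of the 9, C2 and C3ar1, had an unadjusted p under 0.05, and 0 did for the other pairs of ages. Of all 22180 genes, 1628 did for the adult against P7 and 3048 for the adult against P3. Over all genes 0.203% were called for the adult against P7 and 0.18% for the adult against P3. For P7 against P3 the share called was 0%, with 1260 genes at an unadjusted p under 0.05. For C2 these differences were -0.78 ± 0.37 between adult and P3 (adjusted p 0.364) and 0.67 ± 0.37 between P7 and P3 (adjusted p 0.868). Without P7 corpus callosum replicate 1 the latter was 0.23, and without replicate 3 of that group it was 0.99.

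A list of 54 further complement genes, of which 50 were measured, gave the surroundings of these results. In corpus callosum against cortex 1 of 50 was higher at P3, 2 of 50 at P7 and 0 of 50 in the adult. The shares of all genes called in either direction were 0.505%, 0.451% and 0.00451%. In the adult 3 of 50 had an unadjusted p under 0.05, beside 1888 of 22180 genes. The median regional differences of the 50 genes were 0, 0.04 and 0.06. The gene called at both early ages was Itgax, which encodes CD11c, a subunit of complement receptor 4. The other gene called at P7 was Colec12, which encodes a scavenger receptor of the collectin family.

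Itgax read 6.13, 5.71 and 5.65 in P3 cortex and 7.86, 7.84 and 7.60 in P3 corpus callosum. At P7 it read 6.10, 5.41 and 5.71 in cortex and 9.80, 8.30 and 8.43 in corpus callosum, and adult arrays lay between 5.62 and 5.91 in both regions. As for C2, early callosal arrays lay above all others, and P7 callosal replicate 1 was the highest. Itgax exceeded its array's median on 11 of 18 arrays, so its lower levels may lie near background and the size of the folds is uncertain. Itgax fell by 3.18 from P7 to adult corpus callosum (SE 0.28, 9.06-fold, adjusted p 1.88e-07) and differed by -0.01 ± 0.28 in cortex (adjusted p 0.989). The difference between these changes was called (-3.17 ± 0.39, adjusted p 0.00211), as was that of the regional difference between adult and P3 (-2.0 ± 0.39, adjusted p 0.0455), which lost its call whichever of the 12 arrays compared was left out.

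Colec12 read 6.29, 5.63 and 5.51 in P7 cortex and 8.82, 7.56 and 7.42 in P7 corpus callosum. At P7 its callosal level exceeded the cortical level 4.35-fold (2.12 ± 0.30, adjusted p 0.00118) and fell by 2.39 from P7 to the adult in corpus callosum (SE 0.30, adjusted p 1.44e-05). In a fit on the compared groups alone the P7 difference was not called (adjusted p 0.0712). Colec12 exceeded its array's median on 10 of 18 arrays, so the size of its folds is uncertain too. The arrays of the regions did not overlap at P7 or at P3, but the P3 difference of 1.29 ± 0.30 missed the threshold (adjusted p 0.0647). Averaged over ages 2 of 50 genes were called, beside 0.618% of all genes, namely Itgax (1.66 ± 0.16, adjusted p 1.5e-05) and Colec12 (1.27 ± 0.17, adjusted p 0.00076).

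**Figure D4:**
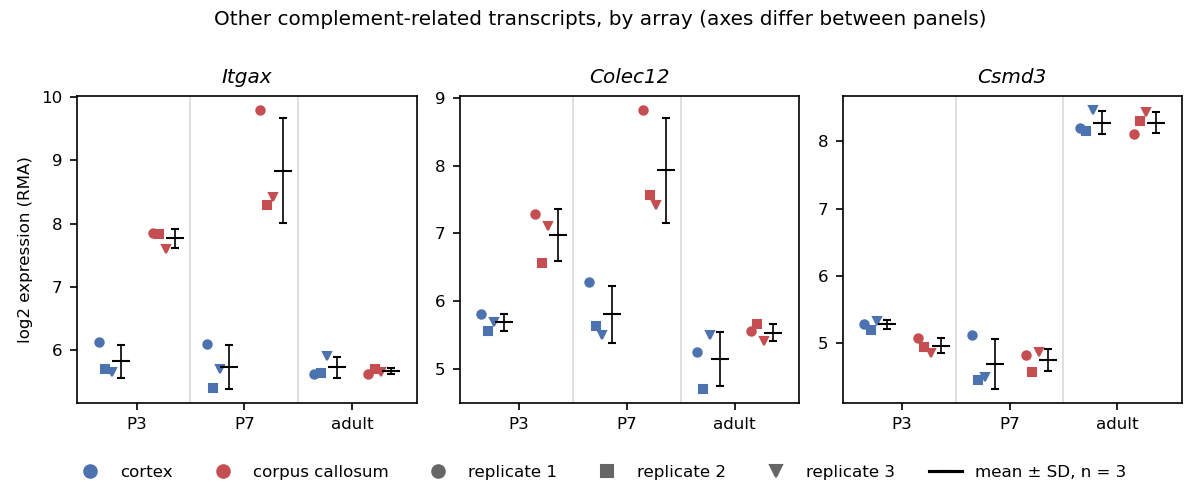
Log2 expression of Itgax, Colec12 and Csmd3 on every array (points, shape by replicate number) with group mean and SD (n = 3), by age and region. Itgax and Colec12 are high in P3 and P7 corpus callosum, and Csmd3 is high in the adult in both regions.

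From P7 to the adult 4 of the 50 genes rose and 1 fell in cortex, and 5 rose and 6 fell in corpus callosum, beside 10.2% and 17.2% of all genes called in either direction. Csmd3, which encodes a large membrane protein of CUB and sushi domains, rose 12-fold in cortex (3.59 ± 0.16, adjusted p 7.69e-11) and 11.6-fold in corpus callosum (3.53 ± 0.16, adjusted p 1.03e-10). Its arrays lay between 4.45 and 5.12 at P7 and between 8.11 and 8.47 in the adult, with the regions overlapping. It exceeded its array's median on the 6 adult arrays alone, so the earlier levels may lie near background and the size of the folds is uncertain. Itgb2 and Itgam, the subunits of complement receptor 3, rose in both regions. Itgb2 rose by 0.85 ± 0.16 in cortex (adjusted p 0.00119) and 0.86 ± 0.16 in corpus callosum (adjusted p 0.000685). Itgam rose by 0.61 ± 0.13 (adjusted p 0.00389) and 0.84 ± 0.13 (adjusted p 0.000123), and it encodes CD11b, the antigen used in the sort.

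C1qbp, which encodes a largely mitochondrial protein able to bind C1q, fell in both regions, by 0.96 in cortex (SE 0.13, adjusted p 7.25e-05) and by 1.20 in corpus callosum (SE 0.13, adjusted p 4.03e-06). Cd46, a membrane regulator, rose in corpus callosum (1.07 ± 0.22, adjusted p 0.00158) and differed by 0.39 ± 0.22 in cortex (adjusted p 0.334). C4bp, which encodes a binding protein of C4b, was called at 0.53 ± 0.15 in cortex (adjusted p 0.0294), but it exceeded its array's median on 0 of 18 arrays and its signal may be background. Cd59a, an inhibitor of the membrane attack complex, fell by 0.89 in corpus callosum (SE 0.29, adjusted p 0.0386), and by 0.67 without P7 corpus callosum replicate 1, when it was no longer called (adjusted p 0.185). Cd46 and Cd59a exceeded their array's median on 10 and 8 of 18 arrays, so their lower levels may lie near background. C4bp lost its call in 5 of the 6 fits that left out 1 array of the groups compared. From P3 to P7 limma called 0 of 50 genes in either region, beside 0.884% of all genes in cortex and 0.739% in corpus callosum. The unadjusted p was under 0.05 for 12 of 50 in cortex and 6 of 50 in corpus callosum, beside 2892 and 3149 of 22180.

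**Figure D5:**
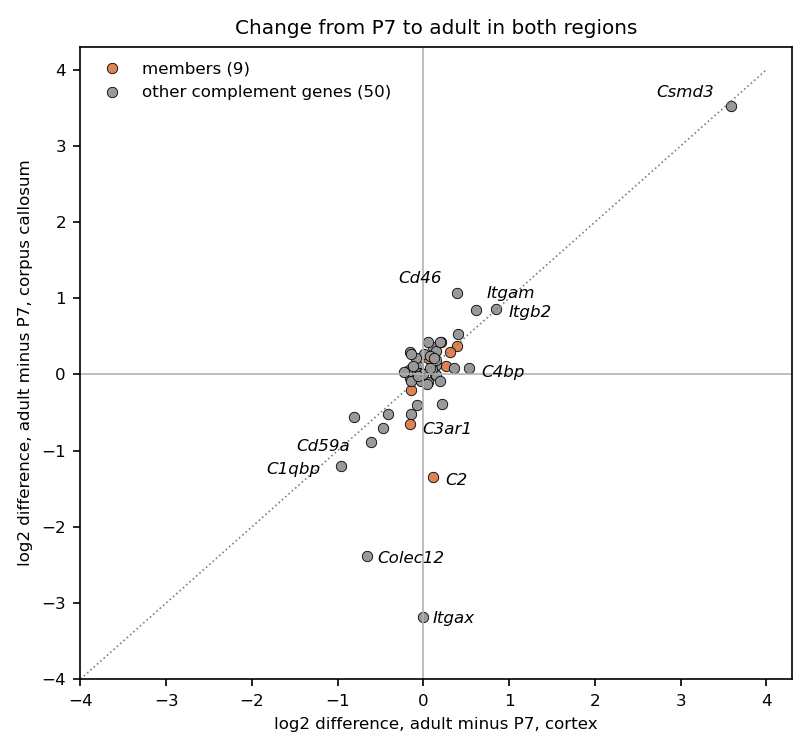
Log2 difference of adult minus P7 in corpus callosum (vertical axis) against that in cortex (horizontal axis) for the 9 complement genes and 50 others, 1 point per gene, with a dotted line of equal change. Csmd3, Itgam, Itgb2 and C1qbp lie near the line, whereas C2, Colec12 and Itgax lie below it.

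Among genes at or above the median mean level, the 3 whose values followed C2 most closely over 18 arrays were Lipa (r = 0.93), Pld3 (0.93) and Itgax (0.92). Lipa, which encodes lysosomal acid lipase, had group means of 9.72 in P3 and 9.74 in P7 corpus callosum against 8.75 to 8.96 in the other groups. Pld3, a lysosomal nuclease of the phospholipase D family, had 9.63 and 9.90 against 8.51 to 8.75. For C3ar1 the closest were Cyba (r = 0.98), which encodes the p22phox subunit of the phagocyte oxidase, Ctsz (0.95), a lysosomal protease, and Atp6v1a (0.95), a subunit of the vacuolar proton pump. Cyba ran from 8.93 in adult corpus callosum to 9.77 in P7 corpus callosum. The searches covered 11090 genes for C2 and 11089 for C3ar1, and the arrays share their groups, so r describes the pattern only.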

How the data were processed

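Per the labels' protocols, RNA amplification used the Ovation PicoSL WTA kit (V2), followed by biotin labelling. The values are log2 expression levels deposited by the authors, made with RMA per the submitters' processing notes; its version and settings and the array's genome build are not given in sources used here. The log base is not stated and was taken as 2 from the range, 0.87 to 13.8. RMA brings array distributions close to each other, though they were not identical here (medians 5.58 to 5.74). A change in total RNA per cell therefore cannot be seen, and signal was not told apart from background. The number of arrays limits the precision.

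The file held 41345 probe sets: 23521 with 1 symbol in GEO's platform annotation, 1814 with several and 16010 with none. Of these, 23328 matched RefSeq genes of GRCm38.p6, used for names, gene order and promoters. The 18 arrays entered 1 model with a mean per group in limma 3.58.1 (R 4.3.3; lmFit, contrasts.fit and eBayes without trend; 12 residual degrees of freedom; two-sided), with 11 comparisons. The procedure was tested on simulated data.

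All complement genes were named. Of the others, every gene called in a regional comparison, up to 4 per direction in each age comparison, and Itgax, Itgam and Itgb2 were named. Genes and lists were chosen with earlier results of these data known. Some listed genes were not analysed here. Same-numbered arrays of the regions correlated in their deviations by 0.02 to 0.30, and not every pair exceeded 0.1, so numbers were not taken as pairs. Alternatives covered normalization, filtering, probe set choice, the variance model, array weights, fits on the compared groups alone, a replicate block and leaving out each array.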

Additional observations from a re-analysis of the deposited data

Results flagged for a closer look

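The regional difference of Itgax, a subunit of complement receptor 4, was tested for a change with age. The change was -3.17 on the log2 scale for the adult minus P7 (adjusted p 0.00211) and -2.0 for the adult minus P3 (adjusted p 0.0455). The second lost its call in 16 of 22 alternatives, among them all 12 that left out a single array. It also compares arrays of different label prefixes, whose effect cancels only if equal in both regions. Callosal Itgax exceeded cortical Itgax on 3 of 3 arrays against 3 at P3 and at P7, and the regions overlapped in the adult. P7 corpus callosum replicate 1, with Itgax at 9.80, also had the highest neutrophil list of its group (6.00), and without it the first value was -2.69 (adjusted p 0.000117).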

How the results depend on the processing

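Over 967 values of single differences under the alternatives, 911 kept direction and side of the threshold, 33 lost a call, 19 gained one and 4 changed sign. The falls of C2 and C3ar1 in corpus callosum stayed called in all 15 and 16 alternatives run. The P7 regional difference of C2 was lost in a fit on the compared groups alone (0 genes of the 9 called, C2 adjusted p 0.134), as was that of Colec12 (adjusted p 0.0712). A filter on low values left 0 called at P7 and in the average over ages, because it removes C2 itself (mean 5.41 against a median of 5.77 over all genes). C1qa brought the count to 1 for adult against P7 cortex under quantile normalization, cyclic loess, eBayes with trend and robust, and array weights, and to 0 to 1 with single arrays left out, and in corpus callosum from 2 to 3. It did the same for P7 against P3 cortex under eBayes with trend and robust and array weights (1), and with single arrays left out (0 to 1). For the regional difference of adult against P7 the count was 0 to 1 with single arrays left out, 1 being C2 without P7 corpus callosum replicate 3. The adult regional difference of C2 was -0.02 with array weights and -0.04 to 0.23 with single arrays left out. With single arrays left out, C5ar1 at P3 ranged from -0.23 to 0.82, and C2 in P7 against P3 corpus callosum from -0.16 to 0.61. Itgax lost its adult against P3 difference in 16 of 22 alternatives, C4bp its call in 8 of 15 and Cd59a in 7 of 15. The causes were not tested.

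Calls over all genes ranged from 16 to 273 at P3 (112 as reported), 40 to 236 at P7 (100), 1 to 3 in the adult (1), 91 to 237 averaged (137), 1567 to 3861 for adult against P7 in cortex (2264) and 2917 to 5274 in corpus callosum (3822). They ranged from 72 to 644 for P7 against P3 in cortex (196), 5 to 506 in corpus callosum (164), and 0 to 1, 11 to 105 and 0 to 242 for the regional differences of P7 against P3 (0), adult against P7 (45) and adult against P3 (40). Centring arrays on their medians moved the share of calls that were higher from 69.6% to 83.6% at P3, from 31.6% to 46.9% for P7 against P3 in cortex, and from 32.5% to 7.44% for adult against P3, whose all-gene median became -0.11. With the replicate number as a block, C2 at P7 kept 1.58 (adjusted p 0.0186), and the counts for the complement genes did not move. Colec12 gained a call at P3 (adjusted p 0.0136) and for adult against P7 (adjusted p 0.0325), and calls over all genes fell from 45 to 28 and from 40 to 21 for the regional differences of the adult. Of 9 arrays compared, 7 correlated best with their own number.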

Other observations

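Of the 7 terminal pathway genes measured, only C8g (9 arrays) and C8b (1 array) exceeded their array's median on any of the 18 arrays, which does not show absence of the others. Cfb, the protease of the alternative convertase, is named here after its values were seen. It exceeded its array's median on 18 of 18 arrays, and its adult values lay below those of P7 in both regions, by -0.81 ± 0.29 in cortex (adjusted p 0.0925) and -0.56 ± 0.29 in corpus callosum (adjusted p 0.208), neither called. Its highest value, 8.26, was on P3 corpus callosum replicate 3, against 6.62 and 6.77 on the other arrays of that group. Cr1l, which encodes the rodent membrane regulator Crry and was likewise chosen after its values were seen, exceeded its array's median on 18 of 18 arrays.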
